A study of Mus musculus with 4 samples.

Results

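The 56 genes described here encode the proteins that copy DNA and those that admit a cell to S phase: the origin licensing factors, the MCM helicase and its activators, the clamp and clamp loader, the replicative polymerases, the enzymes of deoxynucleotide supply, the G1 cyclins and their kinases, the E2F factors and the pocket proteins. They were chosen by name as a list of gene symbols, with no measured value in the rule, though with earlier results of these data known. Each was read from a probe set that the platform annotation gives to that symbol alone. Of the 56, 54 had such a probe set, among 22180 genes in all. Rfc4 and Ccne2 were named only on probe sets that also name another gene (Eif4a2 and Ints8) and were not analysed here. All 54 lay above the background level of the arrays, log2 4.28, and so all entered the test, along with the rest of the 13056 genes tested.

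RNA abundance was measured on 4 Affymetrix arrays of 4T1Br cells, which derive from the 4T1 mouse mammary carcinoma line and home to brain. The shControl group (2 arrays) came from cells transduced with a lentivirus carrying a control hairpin, and the shYTHDF3 group (2 arrays) from cells transduced with a hairpin against YTHDF3, a reader protein of N6-methyladenosine in messenger RNA. Both groups went through puromycin selection. The labels give neither the hairpin sequences, nor how many hairpins or clones were used, nor whether the arrays of a group came from separate cultures, and the p-values below thus cover the spread between these 4 samples alone, which may be technical. The sample titles name the line 4T1, and the cell line label names it 4T1Br.

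Before S phase, the origin recognition complex, Cdc6 and Cdt1 load the ring of MCM proteins onto origins, and geminin blocks Cdt1 once S phase has begun. Cyclin-dependent kinases then help to switch the ring on by recruiting Cdc45 and the GINS complex, and the polymerases follow with the sliding clamp. Entry into S phase is set by cyclin D with Cdk4 or Cdk6 and cyclin E with Cdk2, which phosphorylate the pocket proteins and release E2F factors, and many replication genes carry E2F sites near their start. In tumour cell lines these genes are read as a measure of proliferation, although an array of a whole culture cannot tell more cells in S phase from more RNA per cell.

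To show the E2F link in sequence, the promoter windows of RefSeq (250 bases before to 50 after each annotated start, build GRCm38.p6) were searched on both strands for the E2F-type motif in its 4 spellings, TTTCCCGC, TTTCGCGC, TTTGCCGC and TTTGGCGC. A window was found for 44 of the 56 genes. Where a gene had several annotated starts, a match in any of its windows was counted. At least 1 match lay in 20 of the 44 (45.5%), against 704 of 27025 genes in the whole table (2.60%). The CCAAT box, the motif of NF-Y, was found in 28 of the 44 (63.6%) and in 41.1% of all genes. The next 6 stretches run from 200 bases before the start to the base before it, 5′ to 3′ on the gene's strand, with every E2F-type match in capitals. Mcm5 (chr8:75109309-75109508, + strand), Cdk2 (chr10:128705052-128705251, - strand) and Uhrf1 (chr17:56304113-56304312, + strand) are shown because their array values were higher in both shYTHDF3 samples. Mcm6 (chr1:128359706-128359905, - strand), Cdc6 (chr11:98907951-98908150, + strand) and Cdc25a (chr9:109875379-109875578, + strand) are shown because they hold the same kind of match and their values were level or lower.
Mcm5: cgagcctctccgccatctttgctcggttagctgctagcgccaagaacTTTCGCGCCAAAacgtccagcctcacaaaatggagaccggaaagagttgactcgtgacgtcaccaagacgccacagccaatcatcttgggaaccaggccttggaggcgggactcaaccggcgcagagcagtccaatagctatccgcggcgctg
Cdk2: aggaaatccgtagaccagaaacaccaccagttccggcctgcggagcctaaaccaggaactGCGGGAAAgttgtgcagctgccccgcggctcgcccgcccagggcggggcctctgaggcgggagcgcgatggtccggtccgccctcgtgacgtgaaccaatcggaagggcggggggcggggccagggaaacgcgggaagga
Uhrf1: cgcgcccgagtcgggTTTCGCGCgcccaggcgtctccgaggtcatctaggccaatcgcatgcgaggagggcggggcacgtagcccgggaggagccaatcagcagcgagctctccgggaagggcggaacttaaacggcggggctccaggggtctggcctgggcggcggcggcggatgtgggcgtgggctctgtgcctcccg
Mcm6: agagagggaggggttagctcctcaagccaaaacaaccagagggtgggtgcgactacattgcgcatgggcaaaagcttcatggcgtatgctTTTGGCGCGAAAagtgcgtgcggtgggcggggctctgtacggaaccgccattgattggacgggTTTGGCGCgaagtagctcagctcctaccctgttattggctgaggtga
Cdc6: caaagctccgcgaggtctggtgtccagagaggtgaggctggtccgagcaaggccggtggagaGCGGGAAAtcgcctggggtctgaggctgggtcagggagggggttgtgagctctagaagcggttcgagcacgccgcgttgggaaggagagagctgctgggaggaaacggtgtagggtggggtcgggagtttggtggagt
Cdc25a: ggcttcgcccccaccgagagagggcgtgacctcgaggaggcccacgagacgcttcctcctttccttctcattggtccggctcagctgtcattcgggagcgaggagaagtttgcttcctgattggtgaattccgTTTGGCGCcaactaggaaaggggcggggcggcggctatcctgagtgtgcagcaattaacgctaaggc

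In Mcm5 the TTTCGCGC spelling on the gene's strand (153 to 146 bases before the start) overlapped TTTGGCGC on the other strand (149 to 142 bases before it), so that 2 matches read as 1 run of capitals. Mcm6 held a pair of that kind and a further match 47 to 40 bases before the start. In 4 of the genes that were higher at an unadjusted p under 0.05 by limma, the only match lay after the annotated start, and 30 bases around it are given: Lig1 (chr7:13278841-13278870, + strand), Pold1 (chr7:44548766-44548795, - strand), Cdt1 (chr8:122568035-122568064, + strand) and Pole2 (chr12:69228162-69228191, - strand). A match is a description of these letters and not a measured binding site.
Lig1: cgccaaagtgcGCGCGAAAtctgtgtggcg
Pold1: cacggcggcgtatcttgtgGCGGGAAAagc
Cdt1: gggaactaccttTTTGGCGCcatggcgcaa
Pole2: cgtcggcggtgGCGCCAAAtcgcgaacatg

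Ythdf3 itself, the check on the labels, had log2 values of 8.98 and 8.81 on the shControl arrays, both above its shYTHDF3 values of 8.21 and 8.16. By limma it fell by 0.71 (SE 0.10, adjusted p = 0.0355). By the array signal of 1 probe set the knockdown was partial, with 61.1% of the control signal remaining. The arrays do not give the protein level. The Ythdf3 call was lost with any 1 array left out, in fits that have fewer residual degrees of freedom. It was also lost without the filter on dim genes (limma adjusted p = 0.0866), and it held with an intensity trend (0.00145). Among the epithelial markers Krt8 and Krt18 lay far above background, whereas Epcam lay below it and Cdh1 only just above, at 4.37 to 4.61 over the 4 arrays. Of 12 fibroblast and vessel markers 8 lay above background, and 2 of those were called, Dcn and Pdgfra, both lower in shYTHDF3 (changes of -2.65 and -0.61). Another 3 of the 8 lay above 0 and were not called: Pdgfrb at 0.21, Col1a1 at 0.10 and Acta2 at 0.06. The summed linear signal of all 12 was 1171 to 1193 in shControl and 803 to 811 in shYTHDF3. That of 8 epithelial markers was 2678 to 2893 and 3703 to 3924. Krt18 and Krt8, the brightest of the 8, differed by 0.57 and 0.31 and were not called. Krt7, a dimmer marker, rose by 1.50, and Krt19, which was not called, differed by -0.53. Of 10 immune markers only Cd68 was above background, and Ptprc, the pan-leukocyte marker, was below it on every array. The immune sum was 272 to 307 in shControl and 214 to 220 in shYTHDF3, and Cd68, which was not called, differed by -0.72. The sum of 9 neural and glial markers was 280 to 293 and 350 to 351. Only 5 of the 9 lay above background, and 0 were called. Map2 differed by 0.82, Olig1 by 0.17, Mbp by 0.0040, Rbfox3 by -0.05 and Syn1 by -0.21. The part of these shifts in the changes below was not tested.

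No replication or G1/S gene passed the test over all genes. By limma, with Benjamini-Hochberg adjustment over 13056 genes, 0 of the 54 were called, against 2.73% of all genes (1.28% higher and 1.45% lower); the lowest adjusted p was 0.0560, for Lig1. At an unadjusted p under 0.05 limma placed 15 of the 54 higher (27.8%) and 2 lower (3.70%), against 12.2% and 10.4% of all genes tested. With 1 array left out, the 15 became 16 without shControl 1 and 8 without shControl 2, without shYTHDF3 1 or without shYTHDF3 2, and the 2 became 0, 5, 2 and 0 in that order. The median change (shYTHDF3 minus shControl, log2) was 0.12 over the 54 and 0.0057 over all genes. Of the 54, 38 lay above 0 (70.4%), against 51.1% of all genes. The groups did not overlap in 28 that were higher (51.9%) and 11 that were lower (20.4%), against 28.3% and 25.7% of all genes. When the variance model was allowed to follow signal intensity, limma called 12 of the 54, all higher: Cdt1, Mcm4, Mcm5, Gins2, Gins4, Pold1, Pole, Pole2, Lig1, Ccnd3, Cdk2 and Cdk4. The 12 were 22.2% of the 54, and with that model 5.59% of all genes were called higher and 5.33% lower.

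**Figure D1:**
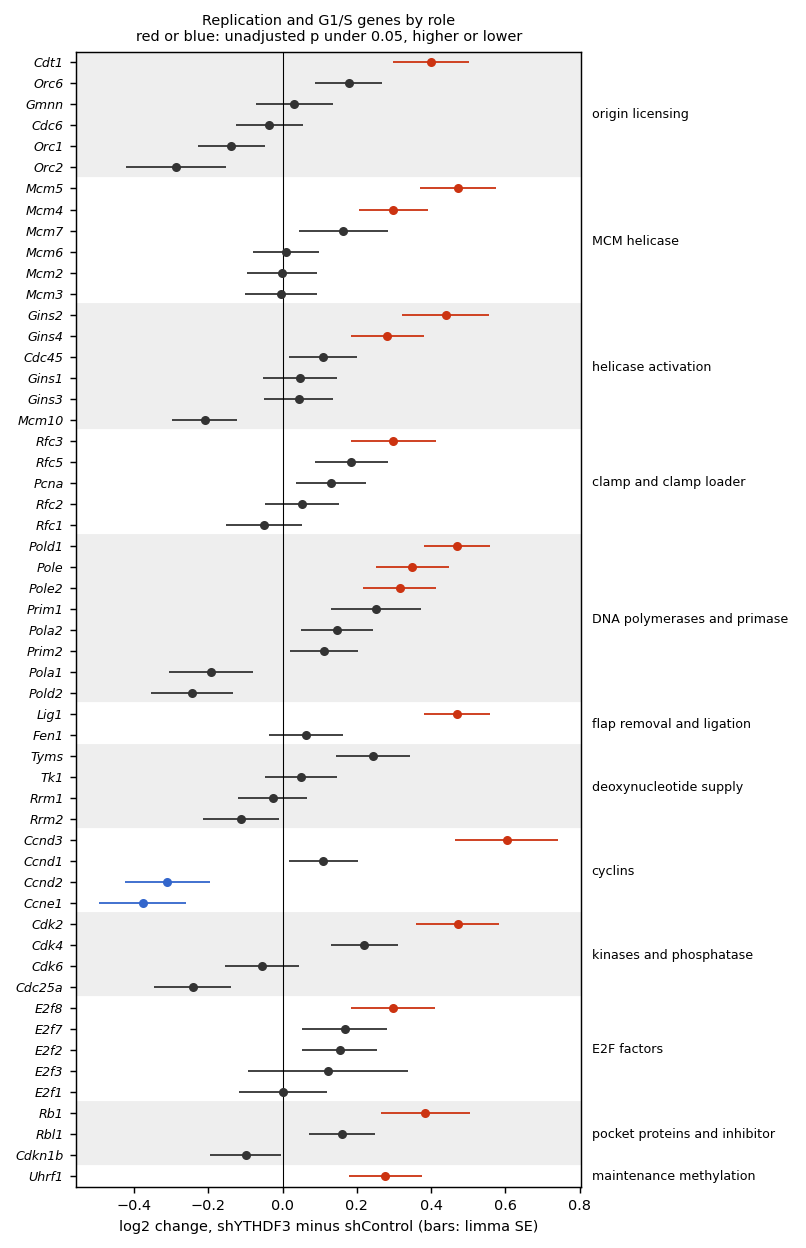
Change of each of the 54 genes (log2, shYTHDF3 minus shControl, horizontal axis) grouped by role, with bars for limma's SE; red and blue mark an unadjusted p under 0.05, higher or lower. Points lie on both sides of 0 within most roles, from -0.38 (Ccne1) to 0.60 (Ccnd3), and the 5 E2F factors lie between 0.00083 and 0.30 (E2f1, the lowest, was -0.031 after repeated quantile normalization).

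**Figure D2:**
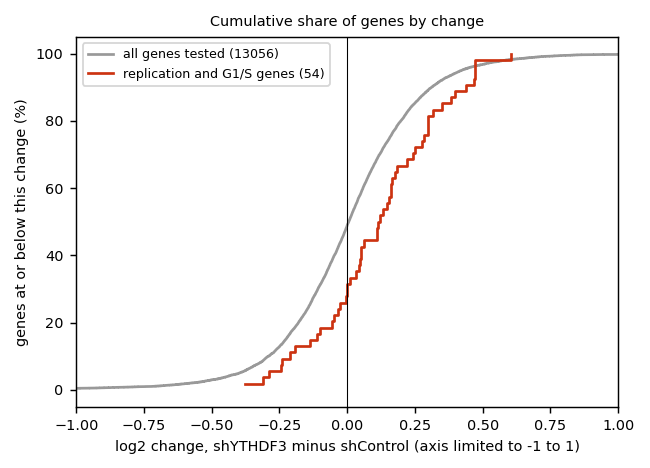
Share of genes (%) at or below each change (log2, shYTHDF3 minus shControl) for the 54 genes in red and all 13056 genes tested in grey, the axis being limited to -1 to 1. The red curve lies to the right of the grey one around the middle (medians 0.12 and 0.0057) and ends at 0.60, inside the grey range.

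The changes were small, the largest being 1.52-fold, and the spread between arrays was narrow. The median gap between the arrays of a group was 0.092 in shControl and 0.081 in shYTHDF3 over the 54 genes, while the median size of a change was 0.17. Over all genes tested these medians were 0.126, 0.107 and 0.148. Taking each gene's distance from its own mean over the 4 arrays, the median distance on the shControl arrays was -0.054 and -0.059, and on those of shYTHDF3 0.065 and 0.023. The first shYTHDF3 array had 40 of the 54 genes above their own mean and the second 35, while each shControl array had 18. The 4 distances of a gene depend on each other, so these counts restate the direction of the changes in another form.

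**Figure D3:**
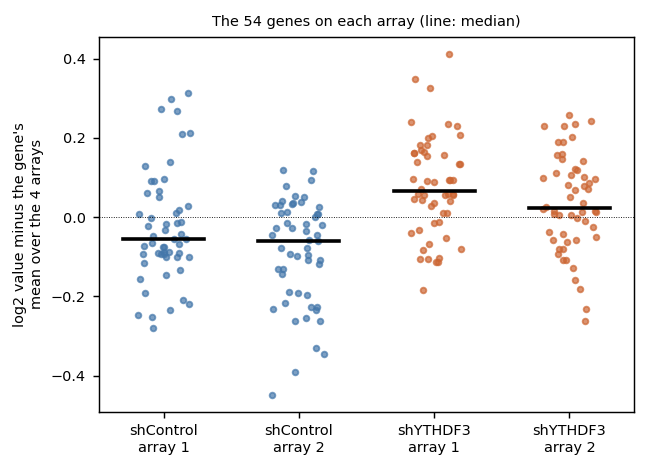
Distance of each of the 54 genes from its own mean over the 4 arrays (log2, vertical axis), 1 point a gene, for each array, with a line at the median. The medians of the 2 shControl arrays lie at -0.054 and -0.059 and those of the 2 shYTHDF3 arrays at 0.065 and 0.023, with wide overlap of the points.

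Among the 6 origin licensing genes, Cdt1 had the largest change. Cdt1, which loads the MCM ring with Cdc6, read 8.49 and 8.65 in shControl and 8.94 and 9.00 on the shYTHDF3 arrays (probe set 17506418). Both shYTHDF3 values lay above both shControl values, a change of 0.40 (SE 0.10, limma adjusted p = 0.101; 0.0171 when fitted with an intensity trend). Gmnn, the gene of the Cdt1 inhibitor geminin, differed by 0.03 with overlapping groups (95% interval -0.22 to 0.29), and Cdc6 differed by -0.04. The 3 subunits of the origin recognition complex did not go one way: Orc6 differed by 0.18, Orc1 by -0.14 and Orc2 by -0.29, the Orc2 values being 8.20 and 7.86 against 7.78 and 7.71. None of the 6 was called, 3 were above 0, and their median was -0.0020.

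The MCM ring is built from the products of Mcm2 to Mcm7 in equal numbers, and their transcripts did not shift alike. Mcm5 read 9.14 and 9.16 in shControl and 9.71 and 9.53 on the shYTHDF3 arrays (probe set 17502583). Its groups were clear of each other, with a change of 0.47 (SE 0.10, limma adjusted p = 0.0744; 0.00663 when fitted with an intensity trend). Mcm4 read 10.55 and 10.45 against 10.80 and 10.79 (probe set 17328432), again with both shYTHDF3 values above, a change of 0.30 (SE 0.09, limma adjusted p = 0.144; 0.0183 with the trend). Mcm7 differed by 0.16, but only its first shYTHDF3 value, 10.02, lay above both shControl values of 9.66 and 9.80; the second was 9.77. Mcm2, Mcm3 and Mcm6 differed by -0.0017, -0.0049 and 0.0085, with overlapping groups; the widest of their 95% intervals, that of Mcm3, ran from -0.24 to 0.23. The signs of Mcm2 and Mcm3 turned after repeated quantile normalization (0.024 and 0.037). Whether Mcm5 differed from its partners in the ring was not tested.

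Of the 6 genes for helicase activation, Gins2 and Gins4 stood highest. The GINS complex holds the active helicase together with Cdc45. Gins2 read 7.85 and 7.60 in shControl and 8.12 and 8.20 on the shYTHDF3 arrays (probe set 17513525), a change of 0.44 (SE 0.12, limma adjusted p = 0.109; 0.0273 with the trend). Gins4 read 8.84 and 8.74 against 9.03 and 9.12 (probe set 17508151), a change of 0.28 (limma adjusted p = 0.173; 0.0493 with the trend). Neither gene's groups overlapped. The other subunits, Gins1 and Gins3, differed by 0.05 and 0.04 with overlapping groups, and Cdc45 differed by 0.11. Mcm10, which helps the helicase to start and is no part of the ring, pointed the other way: it read 8.69 and 8.71 against 8.49 and 8.49, a change of -0.21 (limma adjusted p = 0.235).

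The sliding clamp gene Pcna differed by 0.13 (95% interval -0.10 to 0.36). Rfc3, a subunit of the complex that loads the clamp, read 7.33 and 7.16 in shControl and 7.45 and 7.64 on the shYTHDF3 arrays (probe set 17455608). Its groups did not overlap, and it differed by 0.30 (SE 0.11, limma adjusted p = 0.204; 0.123 with the trend). Rfc5 differed by 0.18, Rfc2 by 0.05 and Rfc1, the large subunit, by -0.05, the last pair with overlapping groups.

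Polymerase genes had the highest median of the roles with more than 2 genes, 0.20 over 8. Pold1, the catalytic subunit of polymerase delta, which makes the lagging strand, read 7.80 and 7.83 in shControl and 8.28 and 8.28 on the shYTHDF3 arrays (probe set 17490282). The arrays of each group lay close together and the groups far apart, a change of 0.47 (SE 0.09, limma adjusted p = 0.0567; 0.00831 with the trend). Pold2, a small subunit of the same polymerase, pointed down, at 8.85 and 8.84 against 8.71 and 8.49, a change of -0.24 (limma adjusted p = 0.257). Pole, the catalytic subunit of the leading-strand polymerase epsilon, read 8.31 and 8.40 against 8.76 and 8.65 (probe set 17440465), a change of 0.35 (SE 0.10, limma adjusted p = 0.119; 0.0270 with the trend). Its second probe set lay below background. Pole2, its partner subunit, read 8.46 and 8.32 against 8.70 and 8.71 (probe set 17281506), a change of 0.31 (limma adjusted p = 0.143; 0.0389 with the trend). In the complex of polymerase alpha and primase, which lays the primers, Prim1 differed by 0.25, Pola2 by 0.15, Prim2 by 0.11 and the catalytic Pola1 by -0.19.

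Lig1, the ligase that seals Okazaki fragments, came closest to the threshold. It read 8.50 and 8.50 in shControl and 8.97 and 8.96 on the shYTHDF3 arrays (probe set 17473856), so the groups lay far apart beside the gap within each. Its change was 0.47 (SE 0.09, 95% interval 0.25 to 0.69, limma adjusted p = 0.0560; 0.00477 with the trend). Lig1 passed when only genes above the median of all probe sets were tested (limma adjusted p = 0.0486), as did Pold1 (0.0492), and Lig1 alone passed after repeated quantile normalization (0.0496). Fen1, the nuclease that trims the flap before ligation, differed by 0.06 with overlapping groups, and by 0.09 on its second probe set.

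Genes of deoxynucleotide supply lay around 0. Tyms, thymidylate synthase, had the largest change of the 4, at 8.79 and 8.65 in shControl and 9.00 and 8.92 on the shYTHDF3 arrays (probe set 17446627). Its values did not overlap, and it differed by 0.24 (SE 0.10, limma adjusted p = 0.225). Tk1, thymidine kinase, differed by 0.05. The ribonucleotide reductase genes Rrm1 and Rrm2 differed by -0.03 and -0.11. A second, dimmer probe set of Rrm2 differed by 0.21, its shYTHDF3 values of 4.37 and 5.30 lying on either side of the shControl values of 4.60 and 4.66.

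The G1 cyclins went in opposite directions. Ccnd3, the gene of cyclin D3, read 7.46 and 7.17 in shControl and 8.03 and 7.81 on the shYTHDF3 arrays (probe set 17338269). Both shYTHDF3 values were higher, and the change of 0.60 (SE 0.14, limma adjusted p = 0.0835; 0.0157 with the trend) was the largest of the 54. Ccnd2, the gene of cyclin D2, read 9.23 and 8.99 against 8.77 and 8.83 (probe set 17471222), with both shYTHDF3 values lower and a change of -0.31 (SE 0.11, limma adjusted p = 0.189; 0.0587 with the trend). Ccnd1, the cyclin D1 gene, differed by 0.11, at 11.96 and 11.92 against 12.09 and 12.01. Ccne1, which encodes the Cdk2 partner cyclin E1, read 7.30 and 7.08 against 6.89 and 6.74 (probe set 17489886). It was lower on both shYTHDF3 arrays and had the lowest change of the 54, -0.38 (SE 0.12, limma adjusted p = 0.144; 0.0757 with the trend).

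Cdk2, the kinase that cyclin E activates, was higher on both shYTHDF3 arrays, where it read 8.87 and 8.64 against 8.31 and 8.26 in shControl (probe set 17246299). The change was 0.47 (SE 0.11, limma adjusted p = 0.0862; 0.0135 with the trend). Cdk4, a partner of the D-type cyclins, read 10.60 and 10.56 against 10.82 and 10.78 (probe set 17237899). Its groups were narrow and apart, with a change of 0.22 (SE 0.09, limma adjusted p = 0.225; 0.0481 with the trend). Cdk6, the other kinase of that pair, differed by -0.06 with overlapping groups. Cdc25a, the phosphatase that activates Cdk2, read 8.30 and 8.12 against 8.01 and 7.93, a change of -0.24 (limma adjusted p = 0.242).

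**Figure D4:**
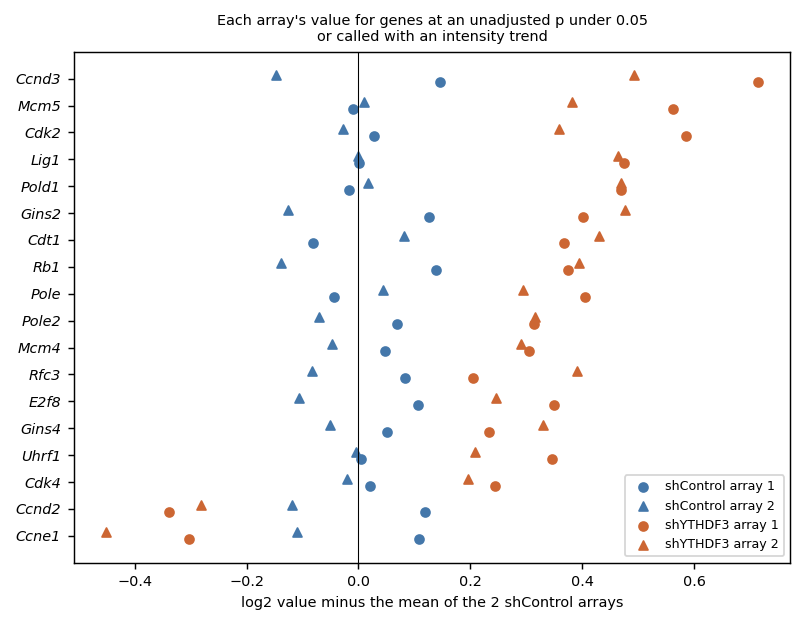
Value of each array minus the mean of the 2 shControl arrays (log2, horizontal axis) for the 18 genes at an unadjusted p under 0.05 or called with an intensity trend; colours mark the groups and symbols the array number. The shYTHDF3 points lie to the right of the shControl points for 16 genes and to the left for Ccnd2 and Ccne1.

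Among E2F factors the activators E2f1, E2f2 and E2f3 differed by 0.00083 (-0.031 after repeated quantile normalization), 0.15 and 0.12. The E2f3 value rested on a wide shControl spread, 7.31 and 6.65, and its SE of 0.21 was the largest of the 54. E2f8, an atypical E2F that represses replication genes, read 9.91 and 9.70 in shControl and 10.15 and 10.05 on the shYTHDF3 arrays (probe set 17491378), a change of 0.30 (SE 0.11, limma adjusted p = 0.198; 0.0513 with the trend). E2f7, its close relative, differed by 0.17, with a gap between the groups of only 0.0014. Rb1, the retinoblastoma gene, whose product holds E2F factors inactive, read 7.41 and 7.13 against 7.64 and 7.67 (probe set 17308570). Both shYTHDF3 values were higher, by 0.38 on average (SE 0.12, limma adjusted p = 0.144; 0.0587 with the trend), while a second Rb1 probe set lay below background. Rbl1, the related pocket protein p107, differed by 0.16, and Cdkn1b, the kinase inhibitor p27, by -0.10. Uhrf1, which guides maintenance methylation to newly copied DNA, read 8.80 and 8.79 against 9.14 and 9.01 (probe set 17338747). Its groups did not overlap, and it differed by 0.28 (SE 0.10, limma adjusted p = 0.177; 0.0513 with the trend).

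The genes shown above in sequence were chosen by the direction of their change, so the counts here cover every tested gene with a window. Among the 20 genes with an E2F-type match the median change was 0.16, 15 lay above 0, and by limma 8 had an unadjusted p under 0.05, each of them higher. Among the 23 tested genes whose window held no match, the median was 0.05, 13 lay above 0, and 3 had such a p, 2 of them higher. Tested genes without a window were in neither set. Of these, Gins2 (0.44), Rb1 (0.38), Pole (0.35), Mcm4 (0.30) and Gins4 (0.28) were higher at such a p, and Ccnd2 (-0.31) was lower. The rest, Ccnd1, Prim2, Rfc2, Gins1 and Gmnn, differed by 0.11, 0.11, 0.05, 0.05 and 0.03. Over all genes tested, 51.1% lay above 0, and 12.2% were higher and 10.4% lower at such a p. The range with a match ran from -0.24 (Cdc25a) to 0.47 (Mcm5), and without one from -0.38 (Ccne1) to 0.60 (Ccnd3). Mcm6, with 3 matches, differed by 0.0085. Genes with 2 matches were Mcm5 (0.47), Rfc3 (0.30), Mcm7 (0.16) and Mcm3 (-0.0049). Those with 1 match ran from -0.24 (Cdc25a) to 0.47 (Cdk2, Lig1 and Pold1). Whether the change went with the number of matches was not tested. The difference between the sets was not tested, and a window without a match says only that these letters were not in it.

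**Figure D5:**
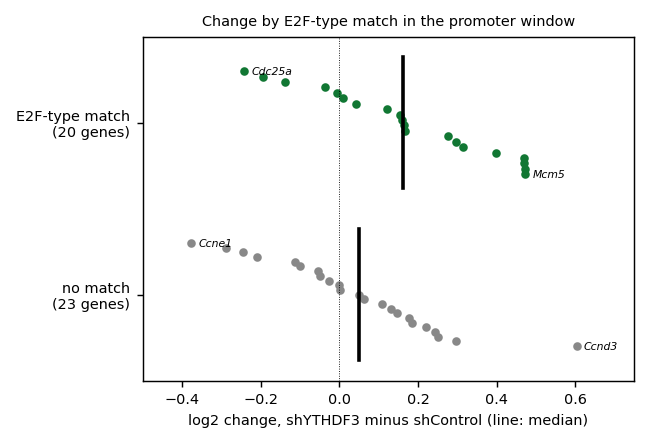
Change (log2, shYTHDF3 minus shControl, horizontal axis) of the 43 tested genes that had a promoter window, split by whether it held an E2F-type match, with a line at each median and the extreme genes named. The medians are 0.16 with a match and 0.05 without, and the ranges overlap over most of their length.

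Other genes of the pathway were read from lists chosen by function. Over all genes tested, 2.73% were called and 51.1% lay above 0. At an unadjusted p under 0.05 limma placed 12.2% of all genes higher and 10.4% lower. Of 36 other replication factors tested, 0 were called, 24 lay above 0 and the median was 0.13, and limma gave 8 an unadjusted p under 0.05, 7 of them higher. Asf1a, a histone chaperone, had the largest change, 0.58 (8.29 and 7.92 against 8.65 and 8.72; limma adjusted p = 0.0892), followed by Mcm9, a relative of the MCM ring proteins, at 0.53 (limma adjusted p = 0.0705). Of 27 other G1/S regulators, 1 was called and 26 were not, 17 lay above 0 and the median was 0.04. At an unadjusted p under 0.05 limma placed 6 of the 27 higher and 2 lower. The 6 included the kinase inhibitor genes Cdkn2d (0.54), Cdkn1a (0.38) and Cdkn2c (0.32) and the pocket protein gene Rbl2 (0.30). The others of the 6 were Skp2 (0.46) and Lin37 (0.24). The 2 lower genes were Myc and Mybl2 (-0.29). Myc, the growth factor-induced activator of cell cycle entry, read 10.14 and 10.15 in shControl and 9.35 and 9.36 on the shYTHDF3 arrays. It fell by 0.78 (SE 0.09, limma adjusted p = 0.0253; 0.000224 with the trend). The Myc call was lost without the filter on dim genes (limma adjusted p = 0.0667) and with all probe sets adjusted together (0.185). It was also lost with any 1 array left out, in fits that have fewer residual degrees of freedom. Of 22 genes of G2 and mitosis, limma called 0 (4 had an unadjusted p under 0.05, each higher), 18 lay above 0 and the median was 0.15. Cenpa, the centromeric histone, and Ccnb2, the cyclin B2 gene, differed by 0.42 and 0.40 (limma adjusted p = 0.0737 and 0.0769). The medians of the 54 genes, of the other replication factors and of the mitotic genes thus lay close to each other, at 0.12, 0.13 and 0.15.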

How the data were processed

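Total RNA of 4 samples was read on Affymetrix arrays, per the labels' protocols. Each deposited value is a log2 signal of 1 probe set on 1 array; the authors used RMA, per the submitters' processing notes. The log base was taken from the usual output of RMA and the range of the values, and the labels do not name the software version or the annotation build. RMA makes the arrays' distributions alike, so a shift of most genes one way would not be seen. Arrays have no depth; precision is limited by their number.

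Of 41345 probe sets, 23521 had 1 symbol in the platform annotation, 1814 several and 16010 none; 23328 took their current symbol from RefSeq. A gene's value was its brightest probe set (4 of the 54 genes had 2). Genes were tested where their mean exceeded the 95th percentile of 1108 olfactory receptor probe sets, log2 4.28. Groups were compared with limma 3.58.1 (lmFit, eBayes) under R 4.3.3 (two-sided tests, Benjamini-Hochberg adjustment, threshold 0.05); SE and 95% intervals are limma's moderated ones. The step was tested on simulated data with planted changes larger than any of the 54 genes had, so that test does not cover changes of the size reported here. The genes, lists and tests were chosen with earlier results of these data known. Array values are given for genes at an unadjusted p under 0.05, those called with an intensity trend and the largest change in each role. Of the other lists, called genes or else the 2 largest changes are named. For the other G1/S regulators, those at an unadjusted p under 0.05 are named as well. The 7 probe sets that name one of these genes together with another were not used. The alternatives were other filters, an intensity trend, repeated quantile normalization, a common median, the mean of a gene's probe sets, all probe sets, the replicate number as a block and leaving out each array. Promoter windows came from RefSeq. Plots were made in Python 3.11.15 with matplotlib 3.10.9.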

Additional observations from a re-analysis of the deposited data

How the results depend on the processing

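The main limit is 2 arrays a group. The median change of the 54 genes, 0.12, lay between 0.10 and 0.14 under every alternative run, and the count called among them was 0 except under 4 alternatives: 2 when the filter was set at the median probe set (Lig1 and Pold1), 12 with an intensity trend, 13 with a robust trend (E2f8 added) and 1 after repeated quantile normalization (Lig1). The count higher at an unadjusted p under 0.05 (15 by limma) ran from 8 to 16 with 1 array left out. The count lower (2) ran from 0 to 5 with 1 array left out, and was 6 with a trend, 6 with a robust trend, 1 with a common median, 1 with all probe sets past the filter and 1 with the replicate block. Over all genes, limma called 43 without the filter, 1426 with a trend, 1465 with a robust trend, 0 of 21867 probe sets past the filter (3337 at an unadjusted p under 0.05), 51 with the replicate block and 0 to 12 with 1 array left out. Of the genes called, 46.9% were higher in the main analysis and 32.6% without the filter. The cause of these differences was not tested, except that fits with an array left out have fewer residual degrees of freedom and assume that the lone array varies like those of the other group. The Ythdf3 change was -0.71 without the filter, with the replicate block and with all probe sets, but no longer passed (limma adjusted p = 0.0866, 0.0758 and 0.188), and -0.79 to -0.63 with 1 array left out.

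Arrays with the same number did not deviate together (correlation over genes -0.066). With 2 arrays a group this correlation cannot tell whether they were handled together, so the block is known only as a shared number. Of the calls with the block 29.4% were higher, and with it Myc no longer passed (limma adjusted p = 0.0710).

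Genes near 0 changed sign. After repeated quantile normalization Mcm2 was 0.024, Mcm3 0.037, Rrm1 0.034, Cdk6 0.0040 and E2f1 -0.031; with a common median Mcm2 was 0.019 and Mcm3 0.015; with the mean of its probe sets Rrm2 was 0.047. With 1 array left out, changes ran from -0.12 to 0.0083 for Cdk6, -0.092 to 0.094 for E2f1, -0.21 to 0.45 for E2f3, -0.028 to 0.12 for Gins1, -0.0085 to 0.095 for Gins3, -0.050 to 0.11 for Gmnn, -0.058 to 0.054 for Mcm2, -0.054 to 0.044 for Mcm3, -0.0026 to 0.020 for Mcm6, -0.13 to 0.033 for Rfc1, -0.025 to 0.13 for Rfc2, -0.077 to 0.022 for Rrm1 and -0.014 to 0.11 for Tk1.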
